A study of Drosophila melanogaster with 18 samples.

Results

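Whole fly embryos overexpressing E2f1 were set against E2f1 null mutant embryos, both 8 to 10 h old. The 4 arrays were chosen by their titles: 2 of embryos overexpressing E2f1 with its partner Dp and 2 of E2f1 null mutants, out of 18 arrays in 9 groups of 2. The overexpressing embryos came from the driver line Arm-Gal4, active in most embryonic cells, crossed to an E2f1/Dp line. The mutants carried the null alleles E2f17172 and E2f191 over each other, came from stocks balanced with TM3[Kr-GFP] and were picked by an automated embryo sorter (COPAS). Further groups served for comparison. E2f2/Dp overexpression with the same driver was set against Dp null mutants (Dpa2/Dpa4, from CyO[Kr-GFP] stocks, sorted in the same way). E2f1 mutants picked by hand were set against the driver control (Arm-Gal4 crossed to yw) at 14 to 16 h. The driver control of 8 to 10 h served for processing, for counts by age and for levels beside the groups. Embryos of 8 to 10 h overexpressing a dominant negative E2f1 fragment or Rbf1 were used only in processing and in the estimate of spread. The E2f2/Dp, Dp mutant and later E2f1 mutant groups also entered the estimate of spread of the main test. The mutants carry no driver, and no sorting is given for the overexpressing embryos, so genotype, driver, stock background and sorting cannot be told apart. Each RNA sample pooled about 200 to 700 embryos. Whether a group's samples were collected separately is not in the labels. The p-values therefore rest on the spread between arrays of the same group, pooled over the groups fitted, and that spread may be technical.

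E2f1 is the activating E2F transcription factor of the fly. With its dimerisation partner Dp it drives transcription of genes for DNA replication at the transition from G1 to S phase. E2f2, which also binds Dp, acts mainly as a repressor, and the retinoblastoma proteins Rbf and Rbf2 hold E2F factors in check. In the embryo most epidermal cells stop dividing before the age sampled here, while cells of the nervous system and the gut go on replicating DNA.

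Each array gave a signal (a brightness in arbitrary units, quantile normalized here) for 13966 probe sets, of which 8975 units, 7927 of them single named genes, were bright enough to test. Values under 47.5 were set to that floor. Across genes, which are not independent replicates, the log2 signals of the 2 arrays of a group correlated at 0.906 with E2f1/Dp and 0.915 in E2f1 mutants. The brightest probe sets differed between the groups: the top 0.1% of deposited signals began at 19139 and 24418 with E2f1/Dp, against 43283 and 46351 in mutants. Markers of neurons, muscle and haemocytes gave signal in both groups of whole embryos: elav, a neuronal RNA-binding protein, read 1243 and 2330 with E2f1/Dp and 1202 and 877 in mutants. With RNA of whole embryos, fewer cells of a type and less RNA per cell cannot be told apart.

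The manipulated transcripts were far apart. E2f1 read 12282 and 6952 with E2f1/Dp, against 326 and 811 in E2f1 mutants. Both overexpressing arrays lay far above both mutant arrays, a 17.97-fold difference (log2 difference 4.17 ± 0.54, SE, adjusted p = 0.000662 by limma with Benjamini-Hochberg adjustment over all units, as for every test here). A transcript of a null allele can still be made, so the mutant signal does not measure E2f1 protein. Dp read 5918 and 5340 with E2f1/Dp, against 1478 and 1456 in E2f1 mutants (log2 difference 1.94 ± 0.18, adjusted p = 5.96e-05). E2f2 read 1893 and 4451 with E2f1/Dp and 1979 and 1464 in mutants, so the groups overlapped (0.77 ± 0.29, adjusted p = 0.185; 0.00448 without replicate 1 of E2f1/Dp). Rbf read 396 and 278 with E2f1/Dp and 283 and 205 in mutants (0.46 ± 0.34, adjusted p = 0.556), and its groups overlapped too.

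Of all 8975 units, 367 (4.09%) passed at an adjusted p under 0.05: 200 (2.23%) were higher with E2f1/Dp than in mutants and 167 (1.86%) were lower. Among the 200 higher units 159 differed by more than 1 on the log2 scale, and among the 167 lower ones 129 did. The arrays of the 2 groups did not overlap for 3918 units (43.7%), and for all 367 that passed. The median log2 difference of all units was -0.01, and 48.9% of them had a positive difference. The count rested on each array: it was 155 without replicate 1 of E2f1/Dp, 344 without replicate 2, 156 without replicate 1 of the mutants and 225 without replicate 2. In the same direction, 96 units passed without each of the 4 arrays in turn, 57 higher and 39 lower. Genes of chromosome arm 3R, which carries E2f1, passed at 2.57% higher and 1.13% lower, and those of the X at 2.54% and 1.05%, while on the other large arms the share lower, 2.07% to 2.63%, exceeded the share higher, 1.72% to 2.25%.

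Of 19 tested genes that license and fire replication origins, 12 passed, all higher with E2f1/Dp (2.23% of all units were higher). The list median was 1.80 on the log2 scale (all units: -0.01), and 17 of the 19 differences were positive (48.9% of all units). Mcm3, a subunit of the MCM replicative helicase, read 1325 and 1604 with E2f1/Dp, against 52.1 and 273 in mutants (log2 difference 3.61 ± 0.53, adjusted p = 0.00167). The MCM subunit dpa read 1865 and 1692 with E2f1/Dp and 143 and 312 in mutants (3.07 ± 0.34, adjusted p = 0.000205). Neither gene's groups overlapped, which held for every unit that passed. The further MCM subunits Mcm2 (2.49), Mcm5 (2.27) and Mcm6 (1.69) passed too. So did 4 genes of the origin recognition complex, which loads the helicase: Orc4 (2.68), Orc2 (2.57), Orc5 (2.38) and Orc1 (1.80). Orc2 read 457 and 316 with E2f1/Dp, against 86.1 and the floor in mutants. Cdc45 (1.94), which joins the helicase at firing, Sld5 (2.22), of the GINS complex, and Mcm10 (1.49) complete the 12. The kinase subunits that trigger firing did not pass: Cdc7 differed by -0.49 (adjusted p = 0.614) and chif by -0.35 (adjusted p = 0.518). The other members that did not pass had positive differences: mus101 (0.91), Psf1 (0.73), dup (0.62), Psf2 (0.61) and Cdc6 (0.59). Without replicate 1 of E2f1/Dp, 6 members passed, and Mcm6 (adjusted p = 0.0882), Orc2 (0.109), Orc4 (0.0663), Cdc45 (0.136), Sld5 (0.178) and Mcm10 (0.244) lost their calls. Without replicate 1 of the mutants Cdc45 (0.139), Sld5 (0.203) and Mcm10 (0.118) did, and without replicate 2 of the mutants Orc2 (0.0913), Orc4 (0.0506) and Mcm10 (0.142).

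All 22 tested genes of the replication fork had a positive difference, against 48.9% of all units. Of the 22, 15 passed, all higher, against 2.23% of all units (list median 1.77). PCNA, the sliding clamp that holds polymerases on DNA, read 10849 on both E2f1/Dp arrays, against 1218 and 1068 in mutants (log2 difference 3.25 ± 0.19, adjusted p = 8.4e-07). PolA2, the B subunit of the priming polymerase alpha, read 583 and 660 with E2f1/Dp, against 73.3 and the floor in mutants (3.39 ± 0.46, adjusted p = 0.00101). The E2f1/Dp arrays of both genes lay above all mutant arrays, as for every unit that passed higher. PolA1, the catalytic subunit of that polymerase, differed less: it read 2374 and 2150 with E2f1/Dp, against 659 and 667 in mutants (log2 difference 1.77 ± 0.18, adjusted p = 0.0001). The primase subunits Prim1 (2.28) and Prim2 (2.16), the polymerase epsilon subunits PolE2 (2.58) and PolE1 (1.76), the subunits of the single-strand binding protein RPA2 (2.59), RPA1 (1.87) and RPA3 (1.34), the flap nuclease Fen1 (2.55), DNAlig1 (1.57), Ctf4 (2.35), CG8142 (1.93) and the clamp loader subunit RfC38 (1.17) were the others that passed. Without replicate 1 of E2f1/Dp 8 passed: CG8142 (adjusted p = 0.053), RPA3 (0.0911), DNAlig1 (0.0792), RfC38 (0.0808), PolE1 (0.144), Prim1 (0.0587) and Ctf4 (0.128) did not. Without replicate 2 of E2f1/Dp RfC38 (0.0593), Prim1 (0.127) and Ctf4 (0.172) lost the call. Without replicate 1 of the mutants CG8142 (0.0563), RPA3 (0.0696), DNAlig1 (0.0808), Prim1 (0.198) and Ctf4 (0.36) did, and without replicate 2 RPA3 (0.0598), RfC38 (0.105) and PolE1 (0.128).

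**Figure D1:**
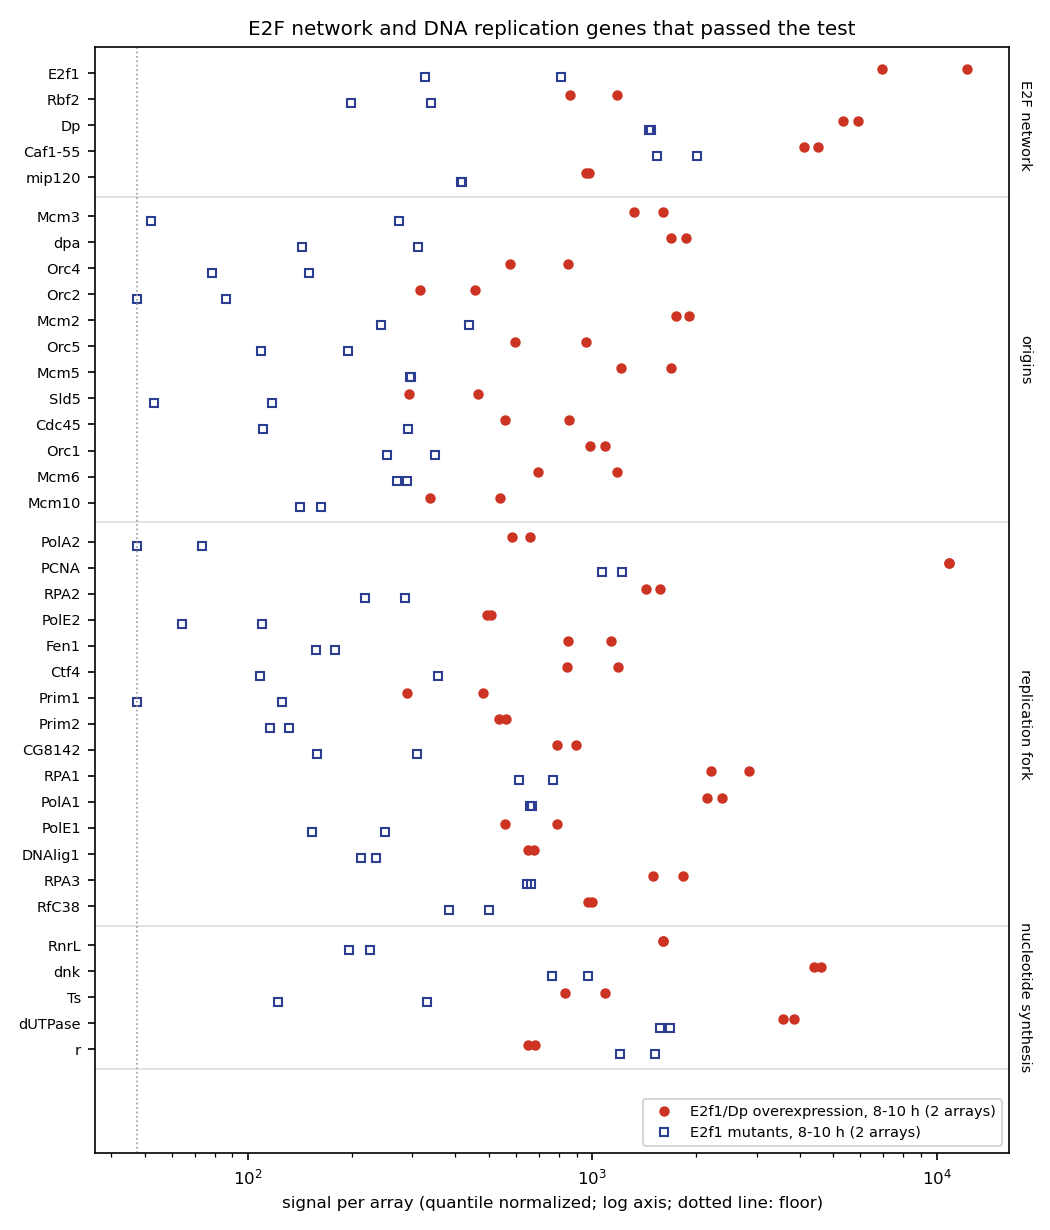
Signal of each of the 4 arrays (log axis) for the members of 4 gene lists that passed; filled circles are the 2 E2f1/Dp arrays and open squares the 2 E2f1 mutant arrays, and the dotted line is the floor at 47.5. The circles lie right of the squares for every gene shown except r, with PCNA at 10849 on both E2f1/Dp arrays.

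Nucleotide synthesis genes passed in both directions (of all units, 2.23% passed higher and 1.86% lower). Of 16 tested members, the 4 that passed higher act on deoxynucleotides and the 1 that passed lower, r, starts the synthesis of pyrimidines (list median -0.28, with 11 of 16 negative). RnrL, the large subunit of ribonucleotide reductase, read 1602 and 1599 with E2f1/Dp, against 225 and 196 in mutants (log2 difference 2.93 ± 0.27, adjusted p = 5.96e-05). The kinase dnk, which salvages deoxynucleosides, read 4629 and 4415 with E2f1/Dp, against 765 and 972 in mutants (2.39 ± 0.17, adjusted p = 4.88e-06). In both, the arrays of each group lay close together and far from the other group. Ts, thymidylate synthase (2.24), and dUTPase (1.19) passed as well, each also without any single array. The gene r read 651 and 682 with E2f1/Dp, against 1201 and 1519 in mutants (-1.02 ± 0.22, adjusted p = 0.0185). It did not pass without replicate 1 (0.101) or 2 (0.0543) of E2f1/Dp or replicate 2 of the mutants (0.133). The other 11 did not pass. Shmt, which supplies one-carbon units, had the most negative difference of the list, -2.03 (adjusted p = 0.134).

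Of 11 E2F network members 5 passed, all higher, against 2.23% of all units (median 0.77). Besides E2f1 and Dp these were Rbf2, which read 1179 and 863 with E2f1/Dp, against 199 and 341 in mutants (log2 difference 1.96 ± 0.41, adjusted p = 0.0156), and the dREAM subunits Caf1-55 (1.30) and mip120 (1.21). The call of Rbf2 was lost without replicate 1 of E2f1/Dp (0.121) or of the mutants (0.15), that of mip120 without the same arrays (0.0573 and 0.0593) and that of Caf1-55 without replicate 2 of the mutants (0.0522). Cyclin E, which drives S phase, read 2483 and 1484 with E2f1/Dp, against 684 and 557 in mutants (CycE, 1.64 ± 0.33, adjusted p = 0.0143), and its kinase Cdk2 differed by 1.05 (adjusted p = 0.00661). They were the 2 of 12 G1 and S regulators that passed (4.09% of all units passed). CycE lost its call without replicate 1 of E2f1/Dp (0.136) or replicate 1 (0.0593) or 2 (0.0943) of the mutants, and Cdk2 without replicate 1 of E2f1/Dp (0.06) or replicate 2 of the mutants (0.0517). CycD (-0.18) and Cdk4 (0.06), which act earlier in G1, did not pass (adjusted p = 0.728 and 0.929).

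Of 45 mitosis genes 41 had a positive difference, against 48.9% of all units, but 6 passed, all higher (median 0.50). Of all units 2.23% passed higher. The kinesin ncd read 2460 and 2239 with E2f1/Dp, against 1028 and 995 in mutants (log2 difference 1.21 ± 0.17, adjusted p = 0.00153). The kinesin Klp67A (1.57) and the condensin subunits SMC2 (1.53) and glu (1.18) passed too. The count was 2 without replicate 1 of E2f1/Dp, 1 without replicate 1 of the mutants, 4 without replicate 2 of the mutants and 3 with median centring of the arrays; of the 4 named genes only ncd kept its call without each array. SMC2 lost its call without any of the 4 (adjusted p up to 0.235), Klp67A without replicate 1 of E2f1/Dp (0.105) or of the mutants (0.0833), and glu without replicate 1 of the mutants (0.0541). All 15 genes of cohesion and chromatin assembly were positive and 2 passed, the cohesin cofactor pds5 (2.42) and the histone chaperone asf1 (1.16). The call of pds5 was lost without replicate 1 of E2f1/Dp (0.0573) or of the mutants (0.0544), and that of asf1 without replicate 2 of E2f1/Dp (0.0623) or replicate 1 of the mutants (0.0652).

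DNA repair genes gave 6 of 23 that passed, all higher, against 2.23% of all units (median 0.51). Msh6, which recognises mismatched bases, read 809 and 666 with E2f1/Dp, against 51.9 and 63.6 in mutants, a 12.8-fold difference (log2 difference 3.68 ± 0.47, adjusted p = 0.000669). RecQ4, a helicase also needed to start replication, was at the floor on both mutant arrays and read 376 and 290 with E2f1/Dp, at least 6.96-fold higher (adjusted p = 0.0174). The double-strand break gene rad50 (1.83) and the helicase Blm (2.04) passed too. Without replicate 1 of E2f1/Dp or of the mutants 2 members passed, without replicate 2 of E2f1/Dp 3, and without replicate 2 of the mutants 4. RecQ4 lost its call without replicate 1 of E2f1/Dp (0.115), or replicate 1 (0.0965) or 2 (0.0765) of the mutants, and Blm without replicate 1 (0.112) or 2 (0.0872) of E2f1/Dp or replicate 1 of the mutants (0.19). Of 14 cell death genes 2 passed, the caspases Dredd (1.82) and Dcp-1 (0.90), both higher with E2f1/Dp (2.23% of all units were higher). The call of Dredd was lost without replicate 1 (0.0678) or 2 (0.159) of E2f1/Dp or replicate 1 of the mutants (0.268), and that of Dcp-1 without replicate 1 (0.121) or 2 (0.134) of E2f1/Dp or replicate 2 of the mutants (0.263). The death inducers grim (0.25, adjusted p = 0.864) and skl (-0.26, adjusted p = 0.817) did not pass, and their arrays overlapped between the groups.

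Several of the largest positive differences lay outside the replication lists. The gene phu read 5678 and 5639 with E2f1/Dp, against 249 and 163 in mutants, 28.12-fold higher (log2 difference 4.81 ± 0.23, adjusted p = 1.75e-07), and was the gene with the largest positive difference. WRNexo, an exonuclease related to that of human Werner syndrome protein, read 2320 and 2130 with E2f1/Dp, against 153 and 196 in mutants (3.68 ± 0.24, adjusted p = 1.8e-06). The gene hd, humpty dumpty, which is needed for DNA replication, read 743 and 685 with E2f1/Dp, against 78.1 and the floor in mutants (3.55 ± 0.52, adjusted p = 0.00167). The groups overlapped for none of these genes, nor for any other unit that passed. Drsl5, of the Drosomycin family of antifungal peptides, read 11189 and 14557 with E2f1/Dp, against 781 and 1141 in mutants (3.76 ± 0.23, adjusted p = 1.02e-06), and was the 1 of 7 immune genes that passed. CG13794 (672 and 1572 with E2f1/Dp, 47.5 and 158 in mutants) and CG31445 (541 and 610, 50.4 and 47.5) had log2 differences of 3.57 and 3.55. A mutant array of each stood at 47.5, the floor, so these differences may be understated. Together, the 8 lists on the E2F network, replication, nucleotides, the cell cycle, chromatin and repair held 52 of the 200 units that were higher (26%) and 1 of the 167 that were lower (0.599%), and 52 of their 163 tested genes (31.9%) were higher, against 2.23% of all units.

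Among the genes lower with E2f1/Dp than in mutants, Cpr49Ac, a cuticle protein, read 123 and 49.3 with E2f1/Dp, against 885 and 675 in mutants (log2 difference -3.31 ± 0.45, adjusted p = 0.001). Obp56a, of the odorant-binding family, read 128 and 294 with E2f1/Dp, against 1573 and 2017 in mutants (-3.20 ± 0.33, adjusted p = 0.000109). The xanthine dehydrogenase gene ry read 99.1 and 165 with E2f1/Dp, against 895 and 786 in mutants (-2.71 ± 0.36, adjusted p = 0.000769). In each, both mutant arrays lay above both overexpressing ones, as for every unit that passed lower. Cyp12d1-d, a cytochrome P450 (-3.28), CG4306 (-3.21) and the solute carrier Slc45-1 (-2.84) kept their calls without each array. The calls of CG42324 (-3.20), CG34227 (-2.91), CG10013 and Culd (-2.69) were each lost without any 1 of the 4 arrays, with adjusted p of up to 0.117, 0.272, 0.203 and 0.171. CG10013 was at the floor on both E2f1/Dp arrays, against 382 and 248 in mutants, so it was at least 6.49-fold lower.

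Among 26 measured cytoplasmic ribosomal protein genes 4 passed, all lower with E2f1/Dp (1.86% of all units were lower). RpL17 read 128 and 1555 with E2f1/Dp, against 29542 and 27812 in mutants (log2 difference -6.00 ± 0.76, adjusted p = 0.000554), the largest difference of any unit. Its E2f1/Dp arrays differed from each other by more than 10-fold, yet both lay far below the mutants. RpL37A read 3619 and 3225 with E2f1/Dp, against 24447 and 28764 in mutants (-2.96), RpL28 read 3541 and 3650 against 12531 and 13906 (-1.88), and RpL39 differed by -0.99. All 4 calls held without each array. The list as a whole depended on the scaling: its median was -0.20 with 4 lower after quantile normalization, -1.06 with 18 lower under the deposited scaling and -1.05 with 18 lower under median centring. The brightest probe sets also stood higher on the mutant arrays (above), and their part in this result was not tested. RpL17 and RpL37A were about as bright as in E2f1 mutants in Dp mutants (23456 and 27812 for RpL17, 27571 and 25272 for RpL37A).

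**Figure D2:**
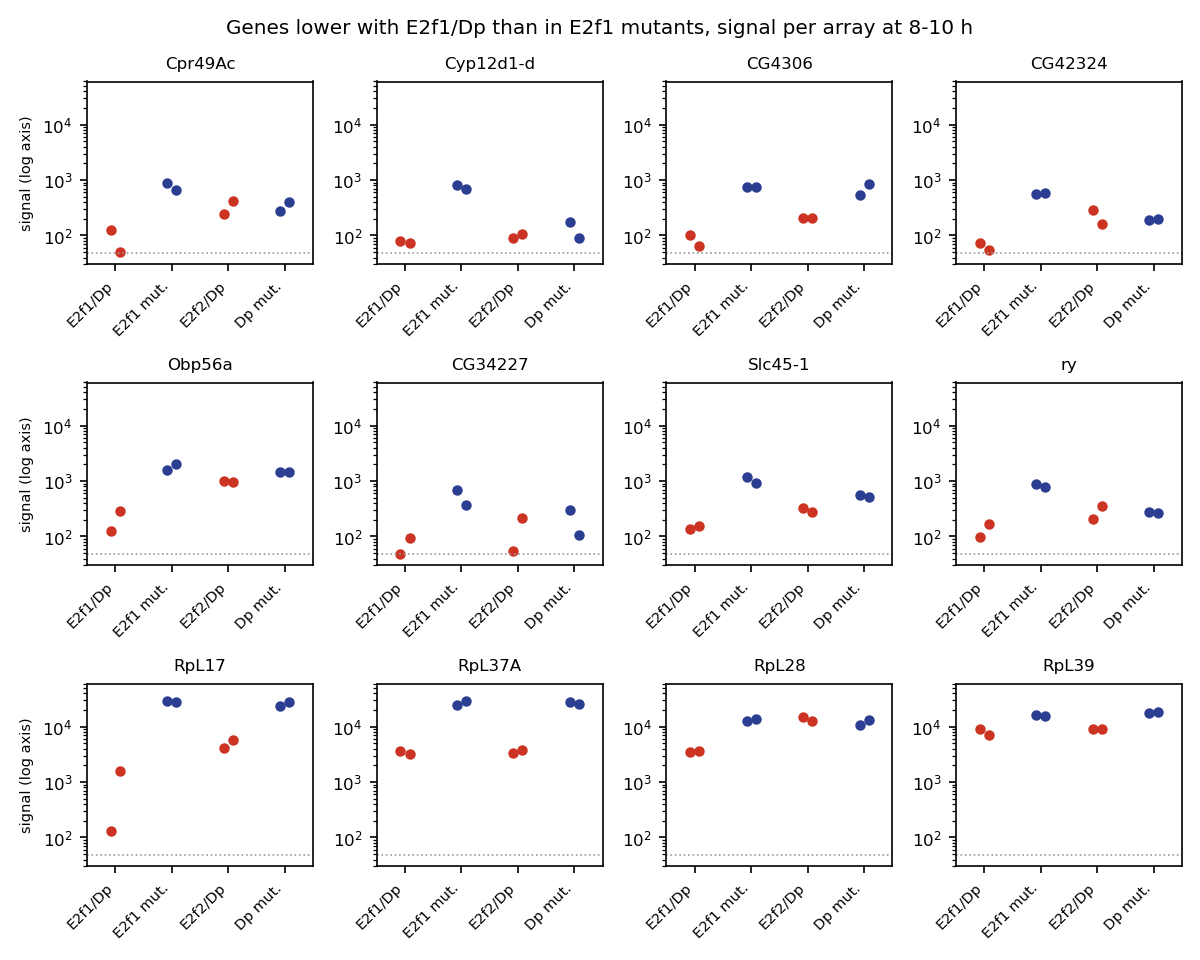
Signal per array (log axis) in E2f1/Dp embryos, E2f1 mutants, E2f2/Dp embryos and Dp mutants at 8 to 10 h, for 8 of the genes with the largest negative differences and for 4 ribosomal protein genes; red points are overexpressing embryos, blue points mutants, and the dotted line is the floor. RpL17 read 128 and 1555 with E2f1/Dp and 29542 and 27812 in E2f1 mutants.

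Marker lists of differentiated tissues are short, and 4.09% of all units passed, so few calls would be found in them at that share. None of 18 muscle (median 0.35), 26 midgut (0.07), 10 neuron (0.08), 10 glia (-0.10), 4 fat body (-0.46), 24 segmentation and Hox (-0.04), 17 maternal and eggshell (-0.13) or 11 glycolysis genes (-0.20) passed. Of 38 cuticle and epidermis genes 2 passed, both lower: Cpr49Ac and verm, a chitin deacetylase also on the tracheal list (-0.98, adjusted p = 0.0118). The call of verm was lost without replicate 1 of E2f1/Dp (0.112) or replicate 2 of the mutants (0.0938). Of 19 septate junction genes cora (-1.05) and nrv1 (-0.88) were lower and Nrg (0.90) was higher. The call of cora was lost without replicate 1 of E2f1/Dp (0.0864) or of the mutants (0.129), that of nrv1 without replicate 1 of E2f1/Dp or replicate 2 of the mutants (0.0803 each), and that of Nrg without replicate 2 of E2f1/Dp (0.069) or of the mutants (0.117). Of 17 haemocyte genes Pxn, peroxidasin of the basement membrane, was lower: 220 and 69.2 with E2f1/Dp, against 814 and 750 in mutants (-2.66 ± 0.64, adjusted p = 0.0325). Pxn did not pass without replicate 2 of E2f1/Dp (0.179) or replicate 1 (0.17) or 2 (0.117) of the mutants. The summed signal of the haemocyte list was 24285 to 26489 with E2f1/Dp and 30393 to 33589 in mutants. That of the muscle list was 48295 to 63547 and 40198 to 42312. Sums were also lower with E2f1/Dp, without overlap, for the glia, fat body, tracheal, and maternal and eggshell lists. They overlapped for the midgut (17609 to 26840 and 22873 to 23216), neuron, cuticle, septate junction, segmentation and glycolysis lists. The brightest members weigh most in a sum, and the sums were not tested.

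In the remaining lists 1 or 2 genes passed, and for the neuroblast, proteasome and respiratory chain lists the share that passed, 4.35%, 3.85% and 4.17%, was near the 4.09% of all units. Of 23 neuroblast and proneural genes brat, a translational repressor that restrains neural stem cell growth, was higher (5340 and 5193 with E2f1/Dp, 2612 and 2902 in mutants; log2 difference 0.94, adjusted p = 0.00349). Of 14 germ cell genes Ote, a nuclear lamina protein, was higher (1.33, adjusted p = 0.00349). Of 13 Notch target and Bearded family genes Brd (2.17) and E(spl)m4-BFM (1.17) were higher. Their E2f1/Dp arrays were far apart, 7771 and 2448 for Brd and 4221 and 1855 for E(spl)m4-BFM, and both calls were lost without replicate 1 of E2f1/Dp (0.0841 and 0.326) or either mutant array (up to 0.0785 and 0.22), while 5 members passed without replicate 2 of E2f1/Dp. Of 12 heat shock genes the small chaperone Hsp27 (-1.50) and Hsc70-4 (-0.79) were lower, both lost without replicate 1 of E2f1/Dp (0.0947 and 0.101) or of the mutants (0.147 and 0.132). The proteasome gene Rpn11 (1.18) was higher and the respiratory chain gene ND-51 (-0.72) lower, and each lost its call without some single array: Rpn11 without replicate 1 (0.108) or 2 (0.103) of E2f1/Dp or replicate 1 of the mutants (0.251), and ND-51 without replicate 1 of E2f1/Dp (0.15) or replicate 1 (0.126) or 2 (0.0991) of the mutants. Of 15 ecdysone genes EcR, the ecdysone receptor (1.67), and MsrA (1.07) were higher, both lost without replicate 2 of E2f1/Dp (0.153 and 0.254) or replicate 1 of the mutants (0.254 and 0.194); EcR also failed without replicate 1 of E2f1/Dp (0.0808), and MsrA without replicate 2 of the mutants (0.143). A second probe set of EcR went the other way, with a log2 ratio of the deposited signals of -2.37, so EcR is uncertain.

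**Figure D3:**
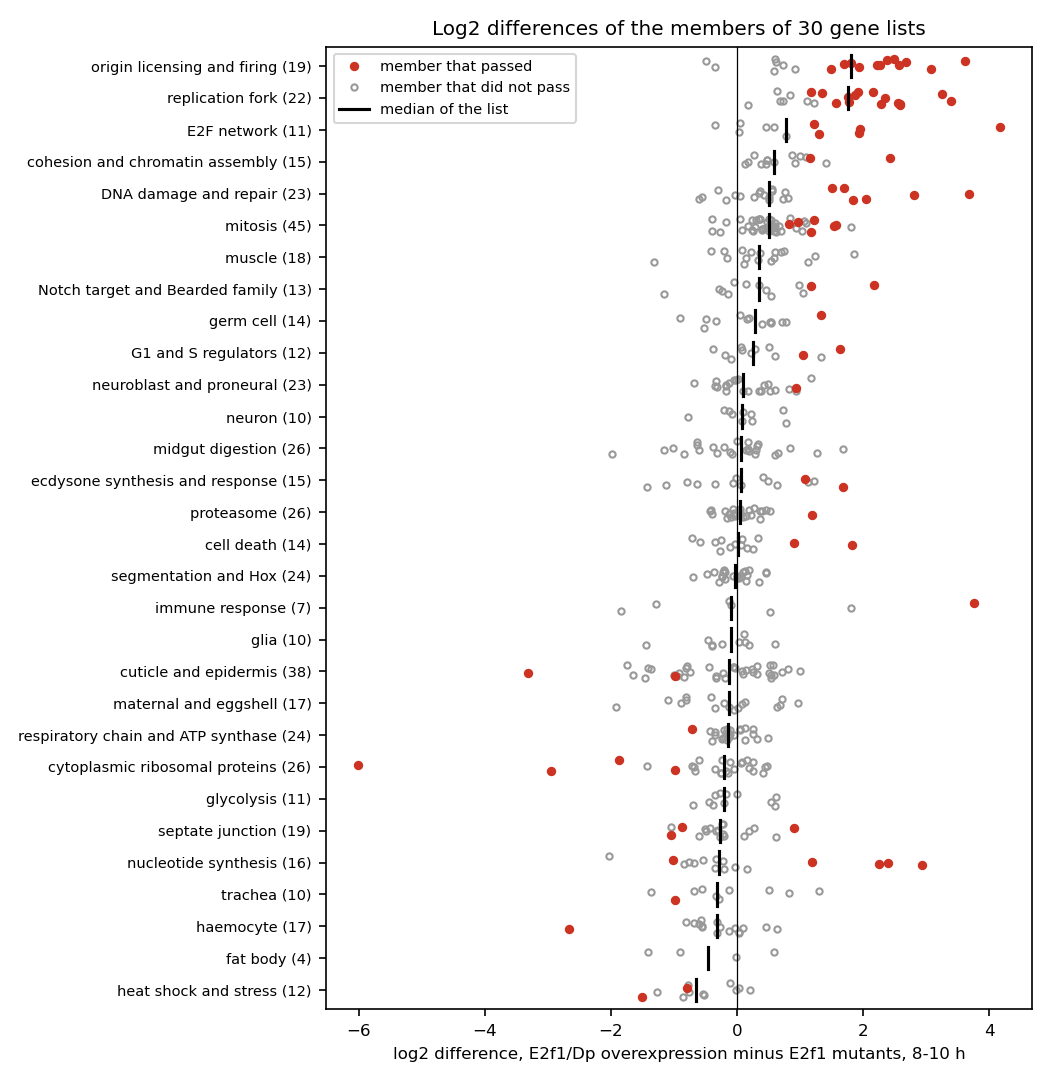
Log2 difference of every tested member of 30 gene lists, E2f1/Dp overexpression minus E2f1 mutants at 8 to 10 h, with lists ordered by their median (black bar) and the number tested in brackets. Members that passed (red) gather in the origin list (12 of 19) and the replication fork list (15 of 22).

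Many of the genes that passed also change with embryo age. Control embryos of 14 to 16 h were set against those of 8 to 10 h, on arrays left out of the main fit. At the later age 1579 of all units (17.6%) were higher and 2297 (25.6%) lower. The spread for these counts came from all 18 arrays, the 4 compared above included. Of the 200 units higher with E2f1/Dp, 144 (72%) were lower with age and 7 higher; these 144 are 6.27% of the units that fell with age. Of the 167 lower units, 71 (42.5%, and 4.5% of the units that rose with age) were higher with age and 22 lower. A stage index was made from the 300 genes that rose most and the 300 that fell most between the control ages. Both sets held single named genes only, with the E2F network, replication, nucleotide, cell cycle, chromatin and repair lists left out beforehand. With the control means at 0 and 1, the index was 0.154 and 0.118 on the E2f1/Dp arrays and 0.196 and 0.227 on the E2f1 mutant arrays. The mutant arrays stood further towards the later age on this scale than the E2f1/Dp arrays, and the 2 groups did not overlap. The 300 risers had a median difference of -0.08 between E2f1/Dp and mutants (0 higher, 6 lower), and the 300 fallers 0.32 (34 higher, 3 lower). The part of the age difference in these counts was not tested.

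E2f2/Dp overexpression against Dp mutants, called the E2f2 pair here, used the same driver and the same sorting. It shares no array with the E2f1 pair. Both tests took their spread from the same 14 arrays, though, so their calls are not independent. Dp is the partner of both E2f1 and E2f2, so the Dp mutants are not a loss of E2f2 alone, and the pair is no exact counterpart of E2f1 gain against E2f1 loss. Of all units 271 (3.02%) passed there, 120 (1.34%) higher and 151 (1.68%) lower. Of the 200 units higher in the E2f1 pair, 23 (11.5%, or 19.2% of the 120) were also higher in the E2f2 pair and 2 lower, and of the 167 lower ones 23 (13.8%, or 15.2% of the 151) were also lower and 1 higher. Over all units the log2 differences of the pairs had a Pearson correlation of 0.05. Over the 367 units that passed in the E2f1 pair, chosen by their E2f1 difference, it was 0.38. Both values are descriptions across genes. Without single arrays the count of the E2f2 pair was 43 (without replicate 1 of E2f2/Dp), 92 (without its replicate 2), 61 (without replicate 1 of the Dp mutants) and 313 (without their replicate 2). Origin and fork genes gave 1 of 19 and 1 of 22 higher there, with list medians of 0.28 and 0.17. CG13794 (log2 difference 5.15), CG31445 (3.46), dnk (1.54), Mcm2 (1.37), PCNA (1.29), WRNexo (1.29), phu (1.00) and dUTPase (0.94) were among the named genes higher in both pairs. For CG31445, E2f2/Dp embryos read 707 and 967, against 74.9 and 75.7 in Dp mutants. RpL37A (-2.91), CG4306 (-1.74) and RpL39 (-0.98) were lower in both.

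The difference between the pairs was itself tested, as the difference of the E2f1 pair minus that of the E2f2 pair, whose mutants lack the partner of both factors. It passed for 173 units (1.93%), 104 (1.16%) positive and 69 (0.769%) negative, or 68 and 28 with median centring. Without single arrays the count was lowest, 25, without replicate 1 of E2f2/Dp and highest, 329, without replicate 2 of E2f1/Dp; it was 50 without replicate 1 of E2f1/Dp, 39 without replicate 1 of the E2f1 mutants, 32 without replicate 1 and 287 without replicate 2 of the Dp mutants, and 69 without replicate 2 of E2f2/Dp. Of the replication fork genes 7 passed, all with the larger difference in the E2f1 pair, among them PCNA (difference of differences 1.96 ± 0.27, adjusted p = 0.00476), PolA1 (1.82, adjusted p = 0.00476), RPA2 (2.43), RPA1 (1.84) and PolE2 (2.79). For PCNA, E2f2/Dp embryos read 5122 and 4572, against 1828 and 2157 in Dp mutants. Msh6 (4.16), RecQ4 (4.03) and rad50 (2.52) were on the repair list, of which 5 passed. For rad50, E2f2/Dp embryos read 335 and 401, against 599 and 586 in Dp mutants (-0.69, adjusted p = 0.196). The difference of differences was 3.81 for phu (adjusted p = 0.000246) and -2.07 for RpL28 (adjusted p = 0.00199), which read 14717 and 12420 with E2f2/Dp and 10708 and 13016 in Dp mutants.

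**Figure D4:**
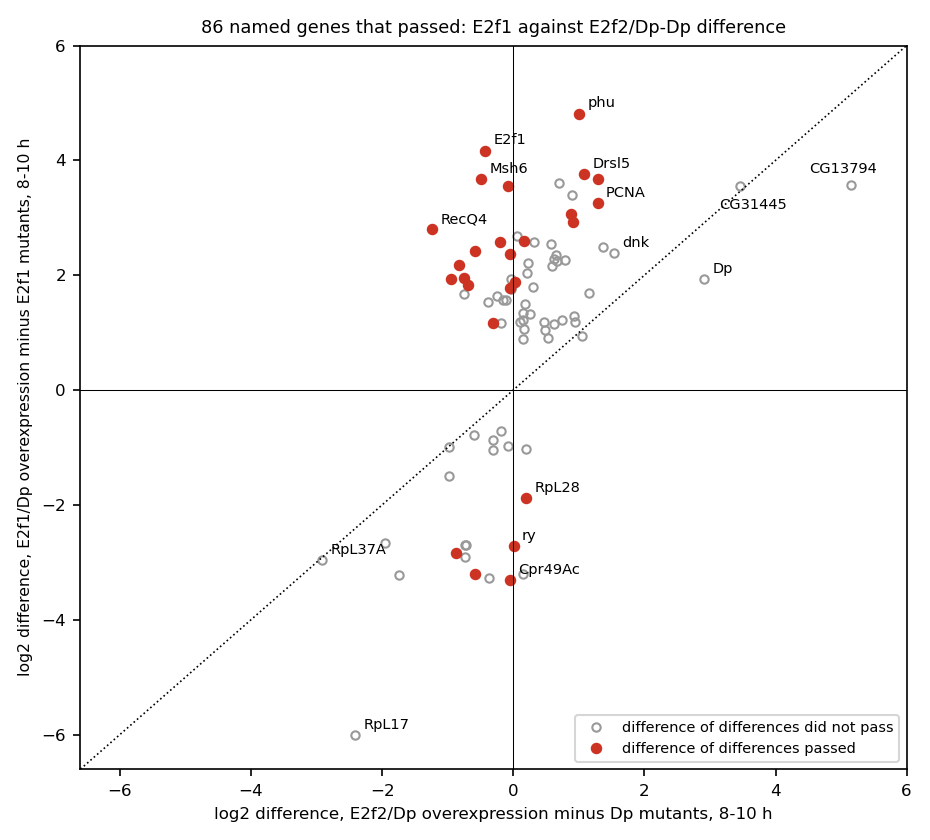
Log2 difference of the E2f1 pair (E2f1/Dp minus E2f1 mutants, vertical) against that of the E2f2 pair (E2f2/Dp minus Dp mutants, horizontal) for the 86 named genes that passed in the E2f1 pair, with equal differences on the dotted line. Red points passed the test of the difference between the pairs, such as phu at 4.81 and 1.00. CG31445 at 3.55 and 3.46 lies next to the line, with an E2f1 mutant array at the floor.

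At 14 to 16 h, E2f1 mutants were set against control embryos of that age on 4 other arrays. Of all units 503 (5.6%) passed, 158 (1.76%) higher and 345 (3.84%) lower in mutants. Of the 200 units higher with E2f1/Dp at 8 to 10 h, 29 (14.5%, or 8.41% of the 345) were lower in the later mutants and 5 higher. Of the 167 lower ones, 21 (12.6%, or 13.3% of the 158) were higher in the later mutants and 5 lower. The condensin subunit glu (log2 difference -3.72, adjusted p = 6.84e-08), Caf1-55 (-2.90), dUTPase (-2.08), ncd (-2.05), Blm (-1.85), Mcm10 (-1.70), Ote (-1.59), dpa (-1.48), WRNexo (-1.19) and brat (-0.90) were lower in the later mutants. CG4306 (1.53) and Slc45-1 (1.10), lower with E2f1/Dp at 8 to 10 h, were higher in them. Drsl5 read 1556 and 1174 in mutants and 459 and 685 in controls at 14 to 16 h (1.27, adjusted p = 0.012), though it was lower in mutants than with E2f1/Dp at 8 to 10 h. Origin genes had 3 of 19 lower in the later mutants (median -0.45) and fork genes 0 of 22 (median -0.09), with PCNA at 918 and 623 in mutants and 1179 and 1265 in controls (-0.69, adjusted p = 0.0505). Mitosis genes had 16 of 45 lower and 1 higher (median -0.61). In these lists Orc2, Orc4 and Klp67A differed by 0.0, as do genes with every array at the floor. A fall of such genes could not be seen. The count of 503 was 251 without replicate 1 and 354 without replicate 2 of the mutants, and 203 without replicate 1 and 330 without replicate 2 of the controls.

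The driver control at 8 to 10 h was left out of the main fit, though its arrays entered the normalization, floor, filter and choice of probe sets. Its levels stand beside those of the 2 groups here. For phu the control read 1351 and 850, with E2f1/Dp embryos above it (log2 difference 2.40, adjusted p = 0.00103) and E2f1 mutants below it (-2.41, adjusted p = 0.00016). For PCNA the control read 5775 and 4702 (1.06 for E2f1/Dp, adjusted p = 0.0651; -2.19 for mutants, adjusted p = 2.81e-05). For Mcm3 it read 1655 and 836 (0.31 for E2f1/Dp, adjusted p = 0.906; -3.30 for mutants, adjusted p = 0.00376), and for Drsl5 8989 and 14442 (0.16 for E2f1/Dp, adjusted p = 0.903; -3.59 for mutants, adjusted p = 1.02e-05). Slc45-1 read 721 and 420 in the control (-1.93 for E2f1/Dp, adjusted p = 0.00542; 0.92 for mutants, adjusted p = 0.0798). Both differences of a gene use the same 2 control arrays, which correlated least of all groups (0.894).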

How the data were processed

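RNA of whole embryos was measured on Affymetrix arrays, 18 in 9 groups of 2. The authors deposited 1 signal intensity per probe set on a linear scale, scaled to a common mean, as the values show. The summarisation software is not given in the sources used here. Signals were quantile normalized over the 18 arrays, floored at the 20th percentile (47.5) and taken to log2. The dimmest 30% of probe sets were left out, and the probe set with the highest mean stood for each gene, which left 8975 units. Gene names came from the platform annotation, updated through RefSeq (12394 probe sets): 12443 probe sets had 1 gene, 327 several and 1196 none.

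Group means were fitted with limma 3.58.1 in R 4.3.3 (empirical Bayes with a trend, two-sided, Benjamini-Hochberg adjustment, threshold 0.05). The fit used 14 arrays without the controls, so 7 groups shared 1 estimate of spread with 7 residual degrees of freedom. The dominant negative E2f1 and Rbf1 groups were among these 7. Values against controls and the 14 to 16 h comparison came from all 18 arrays. Only 2 arrays a group limit the precision. A log2 difference is understated where a group lies at the floor. The fit was tested on simulated data with known changes and normal noise of the fitted spread. It recovered 34% of 2-fold, 78% of 4-fold and 94% of 8-fold changes. A gene that did not pass can therefore still differ.

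The compared arrays, the named genes and the 30 gene lists (532 genes tested, 6 names not matched) were chosen with earlier results of these data known. Named were E2f1, E2f2, Dp, Rbf, phu, CycE, PCNA and the cell death genes grim and skl. The 12 largest differences in each direction were named too, among single genes that passed and whose groups did not overlap. So were the 4 members of each list with the smallest p. Every member that passed of the E2F network, origin, fork and nucleotide lists was also named. The genes stg, rpr and hid were not analysed here. Cdc7, chif, mus101, Psf1, dup, Psf2, Cdc6, Shmt, CycD and Cdk4 were added after their values were seen. Arrays carry replicate numbers, but the differences between replicates 1 and 2 of E2f1/Dp and of E2f1 mutants correlated at 0.00577 across genes, so the numbers were not taken as pairs. Alternatives covered scaling, floor, filter, fit and leaving out each array, as well as the counts by control age, the stage index and the list counts without each array, which were added after seeing the data.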

Additional observations from a re-analysis of the deposited data

Results flagged for a closer look

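For 26 named genes the E2f1 difference (E2f1/Dp minus E2f1 mutants) and that of the E2f2 pair (E2f2/Dp minus Dp mutants, which lack the partner of both factors) differed in a limma contrast of the differences themselves, at an adjusted p under 0.05. The values are differences of log2 differences, positive where the E2f1 pair had the larger one. Among replication and nucleotide genes these were PCNA (1.96), PolA1 (1.82), RPA1 (1.84), RPA2 (2.43), PolE2 (2.79), CG8142 (2.87), RfC38 (1.47), dpa (2.18), Orc5 (2.42), hd (3.63) and RnrL (2.02). Among repair and chromosome genes they were Msh6 (4.16), RecQ4 (4.03), rad50 (2.52), WRNexo (2.39) and pds5 (3.0). E2f1 itself differed by 4.60 and Rbf2 by 2.71. The remaining positive ones were phu (3.81), Drsl5 (2.68) and Brd (3.0). Negative values belonged to RpL28 (-2.07), Slc45-1 (-1.98), Obp56a (-2.62), ry (-2.72) and Cpr49Ac (-3.25). For phu, E2f2/Dp embryos read 717 and 705, against 400 and 315 in Dp mutants. For Cpr49Ac, E2f2/Dp embryos read 240 and 427, against 281 and 395 in Dp mutants, so those arrays overlapped.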

How the results depend on the processing

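The count of 367 for E2f1/Dp against E2f1 mutants was 251 to 392 under the other scalings, floors, filters and fits, except for 129 when only the 4 arrays compared were fitted, and it was 155 to 344 without single arrays. The E2f2 pair gave 97 without the trend, 29 with only its own arrays and 43 to 313 without single arrays. The difference between the pairs gave 96 with median centring (68 positive, 70.8%, against 60.1%), 65 without the trend, 52 with only the arrays compared and 25 to 329 without single arrays. The comparison at 14 to 16 h gave 162 with only its own arrays and 203 to 354 without single arrays. Fits on only the arrays compared have fewer samples; the cause of the other shifts was not tested. With the replicate number as a block, these comparisons gave 337, 262, 126 and 487, in the same order; the numbers do not pair the arrays. Of 86 named genes that passed, 39 kept the call in every alternative run, 41 kept it without each of the 4 arrays, and none changed sign. Of the 72 that did not pass, 5 changed sign. Fbp1 turned positive with the deposited scaling (0.017) and median centring (0.0315), and ranged from -0.403 to 0.379 without single arrays. Without single arrays grim ranged from -0.509 to 1.0, skl from -0.548 to 0.0373, ChAT from -0.134 to 0.595 and gsb-n from -2.0 to 0.604. Genes near the floor of 47.5 have differences that are understated.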

Other observations

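The tissue markers that did not pass between E2f1/Dp embryos and E2f1 mutants did pass in the E2f2 pair for some lists. Of 26 midgut digestion genes, 8 were lower in E2f2/Dp embryos than in Dp mutants (list median -1.37 on the log2 scale). Of 18 muscle genes 3 were lower (median -1.02). Of all units, 1.68% were lower in that pair. These list counts were not redone without single arrays, where the count over all units of the pair ranged from 43 to 313. The difference between the pairs passed for 4 midgut genes, all positive, while 1.16% of all units passed with a positive value. On the stage index E2f2/Dp arrays stood at 0.035 and 0.054, against 0.33 and 0.148 for Dp mutants, so the groups did not overlap; the part of embryo age in these counts was not tested.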
